A study of Mus musculus with 8 samples.

Results

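The genes described here are 50 chromatin modifier and remodeller genes, out of 21883 protein-coding genes on mouse chromosomes 1 to 19, X and Y. They were chosen by name and fall into 13 complexes or families, from the NuRD deacetylase complex to the TET dioxygenases. Binding was measured in C2C12 myoblasts by chromatin immunoprecipitation followed by sequencing. The antibody, a rabbit polyclonal, recognises APOBEC2, a member of the AID/APOBEC cytidine deaminase family expressed mainly in muscle. C2C12 is a mouse cell line that leaves the cell cycle and forms myotubes when serum is lowered. All cells had been moved to 2% horse serum, and 3 immunoprecipitated (IP) libraries and 1 input library came from cells labelled 34 h after induction, and 3 IP libraries and 1 input from cells labelled 14 h. The growth protocol gives the harvests as 24 or 34 h, so the earlier time is uncertain. The names of the deposited peak lists carry the letters GFPsh, which the labels do not explain. No library with a control antibody or from cells without APOBEC2 was analysed here.

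A peak was counted for a gene when it touched the gene or lay within 1 kb of its start or end. A gene was called at a time when peaks of at least 2 of the 3 libraries of that time lay in 1 merged region there. The list of 50 was drawn up with earlier results of these data known, and Bcl7a, Meaf6, Atn1, Chd2, Brd8, Suz12, Ezh2 and Ehmt1 had already been seen to hold regions. Counts over the members are therefore descriptions and were not tested. Values called fold are the authors' peak caller's enrichment over local background at the summit, and they were not tested between lists. Whether the 3 libraries of a time stem from different cultures is not stated, so their spread may be technical.

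Chromatin-modifying complexes set the marks and the nucleosome positions that decide which genes can be transcribed. PRC2, in which EZH2 is the methyltransferase and EED and SUZ12 are core partners, places the repressive H3K27 methyl mark, and SUV39H1, SUV39H2, SETDB1 and the EHMT1 and EHMT2 pair methylate H3K9. DNMT1 copies DNA methylation after replication with the help of UHRF1, which reads hemimethylated DNA, and of the remodeller HELLS, whereas DNMT3A and DNMT3B methylate new sites and TET enzymes oxidise the methyl group. NuRD joins a CHD remodelling ATPase to the deacetylases HDAC1 and HDAC2, and SWI/SNF and the acetyltransferases act mostly on the side of gene activity. In muscle, deacetylases and EZH2 are known to hold back muscle genes in myoblasts, and SWI/SNF and EP300 to act with MyoD in their activation.

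The promoter windows of the 10 members touched by a called region are shown first, because these regions and their summits are described against the sequence. Sequences are those of RefSeq on GRCm38.p6, from 250 bases before a listed start to 30 bases after it, 5′ to 3′ on the gene's strand, with 3 E2F-type words, found on either strand, in capitals. The first word searched was GCGGGAA. The second word was GCGCGAA, and the third word was TTGGCGC. Windows of Uhrf1, Hells, Suz12, Ezh2, Suv39h1 and Suv39h2 were touched by a called region at both times, those of Gatad2b and Sin3a at 34 h, and those of Meaf6 and Ehmt1 at 14 h. Of the 2 windows of Suv39h1 that were touched, the one holding the summits is shown. Of the 50 members, 39 had a listed window, and Brd8, Chd2, Bcl7a and Atn1 are named without one.
Uhrf1: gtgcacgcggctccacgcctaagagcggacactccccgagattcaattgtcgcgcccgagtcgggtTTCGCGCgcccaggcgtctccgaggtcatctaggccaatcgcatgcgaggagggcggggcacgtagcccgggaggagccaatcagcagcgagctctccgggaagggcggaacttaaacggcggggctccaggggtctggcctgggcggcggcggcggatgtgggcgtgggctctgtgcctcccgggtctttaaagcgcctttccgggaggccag
Hells: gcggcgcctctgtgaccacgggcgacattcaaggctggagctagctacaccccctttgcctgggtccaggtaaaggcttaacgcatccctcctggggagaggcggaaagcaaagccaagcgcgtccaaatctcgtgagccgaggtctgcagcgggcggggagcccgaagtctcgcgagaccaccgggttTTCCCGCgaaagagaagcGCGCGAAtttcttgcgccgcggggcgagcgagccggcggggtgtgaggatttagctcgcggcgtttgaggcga
Suz12: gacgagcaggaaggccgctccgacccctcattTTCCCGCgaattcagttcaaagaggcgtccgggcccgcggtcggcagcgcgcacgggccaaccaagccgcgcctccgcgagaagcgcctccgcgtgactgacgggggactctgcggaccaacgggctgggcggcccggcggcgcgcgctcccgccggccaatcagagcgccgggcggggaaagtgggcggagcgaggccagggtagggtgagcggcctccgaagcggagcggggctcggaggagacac
Ezh2: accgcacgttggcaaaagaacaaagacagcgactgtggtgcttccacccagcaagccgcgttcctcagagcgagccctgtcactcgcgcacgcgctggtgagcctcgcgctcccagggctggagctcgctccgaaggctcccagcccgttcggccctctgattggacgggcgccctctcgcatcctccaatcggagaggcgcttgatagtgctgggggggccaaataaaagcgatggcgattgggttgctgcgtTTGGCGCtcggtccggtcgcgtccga
Suv39h1: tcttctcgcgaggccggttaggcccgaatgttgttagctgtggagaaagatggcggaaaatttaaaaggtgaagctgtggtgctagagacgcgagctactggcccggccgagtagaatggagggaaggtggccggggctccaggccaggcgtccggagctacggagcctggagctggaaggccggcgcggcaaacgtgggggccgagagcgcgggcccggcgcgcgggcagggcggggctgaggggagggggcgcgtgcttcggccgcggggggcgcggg
Suv39h2: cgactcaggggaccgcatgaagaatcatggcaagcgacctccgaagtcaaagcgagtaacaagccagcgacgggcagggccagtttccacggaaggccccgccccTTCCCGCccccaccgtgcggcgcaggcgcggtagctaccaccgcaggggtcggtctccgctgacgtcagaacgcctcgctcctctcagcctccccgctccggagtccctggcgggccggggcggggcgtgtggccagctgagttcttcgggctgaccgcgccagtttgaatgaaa
Gatad2b: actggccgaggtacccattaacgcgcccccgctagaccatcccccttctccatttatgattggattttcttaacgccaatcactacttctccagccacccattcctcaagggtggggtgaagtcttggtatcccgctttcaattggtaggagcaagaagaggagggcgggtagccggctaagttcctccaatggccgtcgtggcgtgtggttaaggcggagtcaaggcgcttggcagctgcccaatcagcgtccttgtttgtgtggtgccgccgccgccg
Sin3a: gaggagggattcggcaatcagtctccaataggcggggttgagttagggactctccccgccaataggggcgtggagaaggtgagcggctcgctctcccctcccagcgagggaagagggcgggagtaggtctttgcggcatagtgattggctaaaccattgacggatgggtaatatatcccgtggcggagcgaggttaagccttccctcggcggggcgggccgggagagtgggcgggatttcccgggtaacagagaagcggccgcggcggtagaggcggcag
Meaf6: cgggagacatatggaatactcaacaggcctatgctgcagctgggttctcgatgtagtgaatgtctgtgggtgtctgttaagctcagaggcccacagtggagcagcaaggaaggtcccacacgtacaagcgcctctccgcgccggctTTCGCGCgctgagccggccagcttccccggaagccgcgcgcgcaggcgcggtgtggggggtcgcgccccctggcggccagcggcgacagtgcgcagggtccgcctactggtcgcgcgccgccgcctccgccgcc
Ehmt1: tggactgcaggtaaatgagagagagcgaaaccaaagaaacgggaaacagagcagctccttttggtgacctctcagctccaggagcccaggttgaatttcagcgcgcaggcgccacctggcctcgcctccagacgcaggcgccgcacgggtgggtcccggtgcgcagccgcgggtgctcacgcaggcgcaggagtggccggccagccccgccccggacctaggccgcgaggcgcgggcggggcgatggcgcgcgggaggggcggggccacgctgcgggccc
The full windows of 300 bases lie at chr17:56304063-56304362 (Uhrf1, plus strand, the second of its listed starts), chr19:38930740-38931039 (Hells, plus), chr11:79992856-79993155 (Suz12, plus) and chr6:47594981-47595280 (Ezh2, minus). The others lie at chrX:8074312-8074611 (Suv39h1, minus, the inner of its listed starts), chr2:3474937-3475236 (Suv39h2, minus), chr3:90292931-90293230 (Gatad2b, plus), chr9:57076126-57076425 (Sin3a, plus, the second of its listed starts), chr4:125084884-125085183 (Meaf6, plus) and chr2:24919560-24919859 (Ehmt1, minus).

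The members were called at 34 h in 12 of 50 cases and at 14 h also in 12 of 50, and 7 of them at both times. The 7 were Uhrf1, Hells, Suz12, Ezh2, Suv39h1, Suv39h2 and Brd8. Called at 34 h and not at 14 h were Sin3a, Chd2, Chd8, Gatad2b and Kmt2d, and called at 14 h and not at 34 h were Ehmt1, Arid1a, Bcl7a, Meaf6 and Atn1. The called share was 24% of members at each time, against 8.77% of all protein-coding genes at 34 h and 4.27% at 14 h. Both times together called 14% of members and 3.49% of all genes, 34 h without 14 h 10% and 5.28%, and 14 h without 34 h 10% and 0.777%. A region with a peak of all 6 libraries was held by Uhrf1, Hells, Suz12, Suv39h1 and Brd8, which is 10% of members against 2.25% of all genes. Bcl7a, Meaf6, Atn1 and Ehmt1, called at 14 h and not at 34 h, were listed with regions already seen. So were Chd2, Brd8, Suz12 and Ezh2. The member shares here and below therefore follow in part from how the list was chosen, most of all at 14 h without 34 h.

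The members are long genes, with a median length of 47.1 kb against 17.2 kb over all genes, and 45 of the 50 are longer than the median gene. Of those 45, 11 were called at 34 h and 10 at 14 h (24.4% and 22.2%), where 11.5% and 5.05% of all genes longer than the median were called. With the window limited to 1 kb around the start or end, 10 members were called at each time (20%), against 7.26% of all genes at 34 h and 3.87% at 14 h. No further member was called when the window was widened to 5 kb, where 9.99% of all genes were called at 34 h and 4.95% at 14 h.

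By library, 13, 27 and 10 members had a peak in replicates 1, 2 and 3 of 34 h, and 12, 16 and 12 in those of 14 h. The share of members was 26%, 54% and 20% at 34 h, where 9.24%, 18.1% and 4.7% of all genes had a peak, and 24%, 32% and 24% at 14 h, where 3.72%, 6.5% and 3.97% had one. The members' share was above that of all genes in each of the 6 libraries, and the libraries of the 2 times overlapped. Replicate 2 held the most members at each time, and its list was also the longest, with 5025 peaks at 34 h and 1327 at 14 h against 768 to 2209 in the other 4 libraries. The median summit stood on 19 to 24 fragments, recovered from the caller's fold and p-value, and no peak on fewer than 10. At such counts a gene without a called peak is not shown to be unbound.

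**Figure D1:**
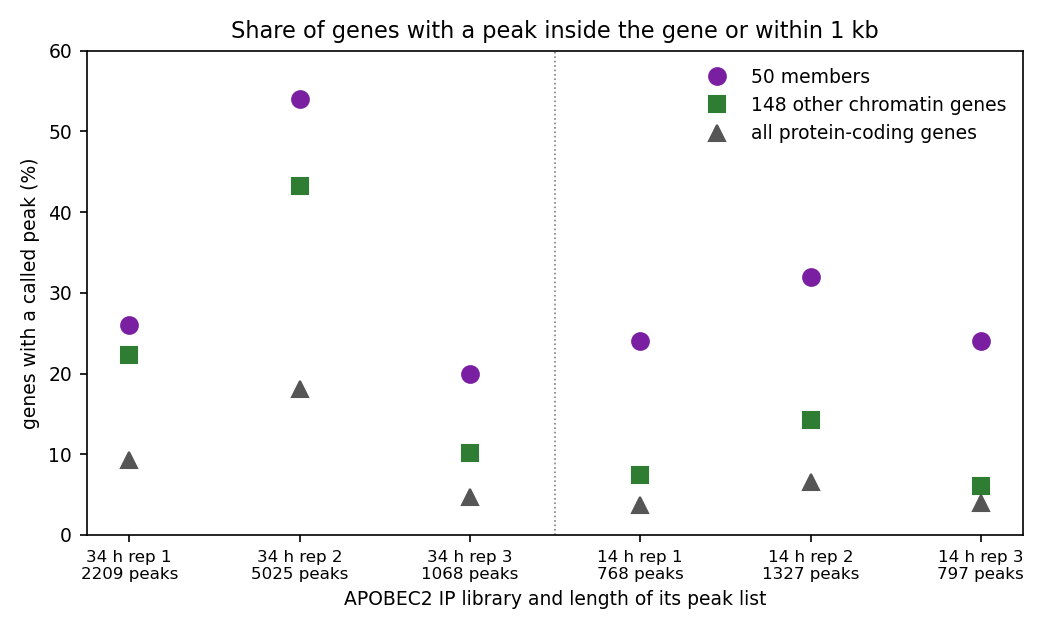
Share of genes (y axis, %) with a peak inside the gene or within 1 kb in each APOBEC2 IP library (x axis, with the length of its peak list), for the 50 members, 148 other chromatin genes and all protein-coding genes. Members lie highest in all 6 libraries, from 20% to 54%, and replicate 2 of 34 h stands above the rest for all 3 sets of genes. Some members were listed with their regions in these libraries known, which raises the members' share.

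The calls were spread over the complexes as follows. At both times 2 of the 3 genes of DNA methylation maintenance (Uhrf1 and Hells) and 2 of the 3 of PRC2 (Suz12 and Ezh2) were called. Of the 5 H3K9 methyltransferase genes, 2 were called at 34 h and 3 at 14 h. Over all genes 8.77% were called at 34 h and 4.27% at 14 h. Of the NuRD genes, 1 of 12 was called at 34 h and 0 at 14 h, and the 3 demethylase, 3 TET and 2 de novo DNA methyltransferase genes had 0 at either time. SWI/SNF had 0 of 4 at 34 h and 2 of 4 at 14 h, and the acetyltransferase complexes 1 of 4 at 34 h and 2 of 4 at 14 h. Of the CHD remodellers outside NuRD 2 of 3 were called at 34 h and 0 at 14 h, of Sin3 with the other deacetylases 1 of 5 and 0, and of the H3K4 methyltransferases 1 of 2 and 0. The NuRD share at 34 h (8.33%) was near that of all genes, and counts in groups of so few genes do not set a complex apart. Suz12, Ezh2, Brd8, Meaf6, Bcl7a, Ehmt1 and Chd2 had been seen to hold regions when the list was made. The counts of PRC2, the acetyltransferase complexes, SWI/SNF, the H3K9 methyltransferases and the CHD remodellers outside NuRD therefore follow in part from that choice.

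**Figure D2:**
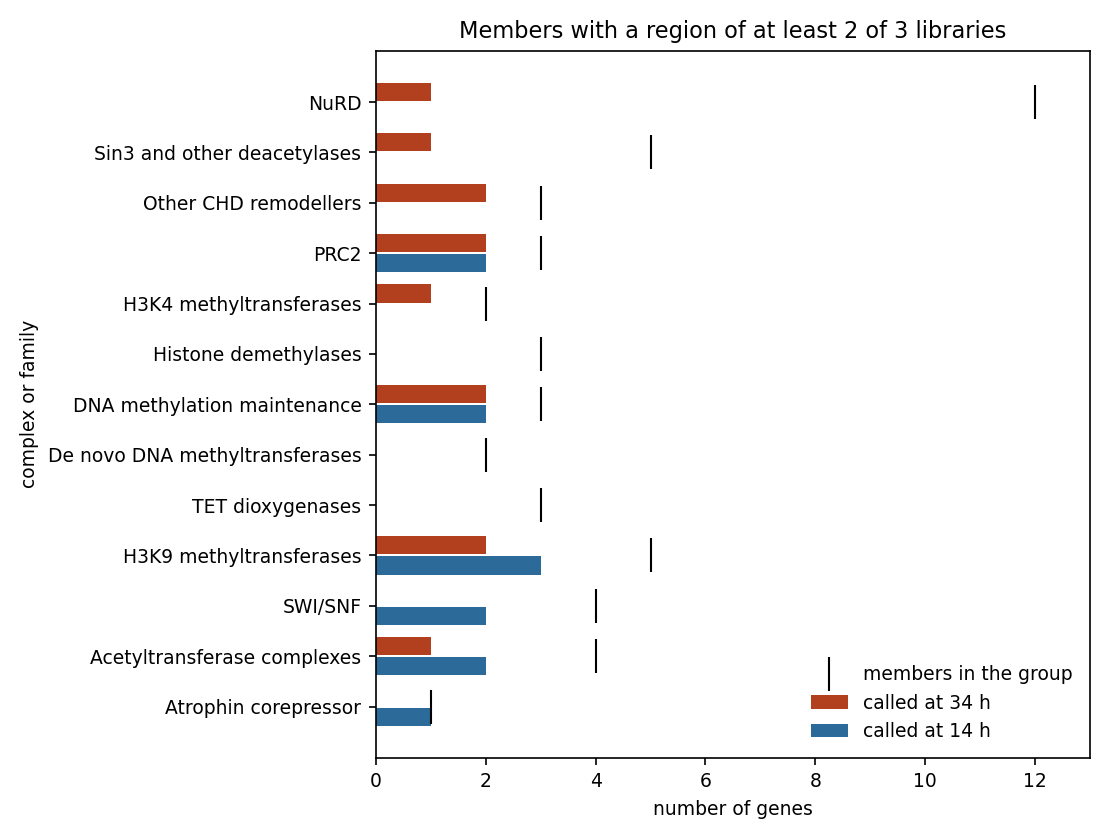
Number of members (x axis) of each complex or family (y axis) with a region of at least 2 of 3 libraries at 34 h (upper bar) and 14 h (lower bar); the vertical tick marks the size of the group. DNA methylation maintenance and PRC2 reach 2 of 3 at both times, and NuRD 1 of 12 at 34 h and 0 at 14 h. Over all genes 8.77% were called at 34 h and 4.27% at 14 h. Suz12 and Ezh2, the called PRC2 genes, and some called genes of other groups were listed with their regions known.

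Folds were lower at 34 h over the lists as a whole. The median fold over all genes with a peak was 6.22, 6.05 and 6.34 in replicates 1, 2 and 3 of 34 h, against 8.83, 8.81 and 9.04 in those of 14 h. A lower fold of a member at 34 h is therefore to be read beside this shift of all genes, and none was shown to be particular to a member.

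Among the DNA methylation genes, Uhrf1 carried the strongest region. Its peaks (mm10 chr17:56303802-56304364) had a fold of 18.0, 23.4 and 12.1 in the 3 libraries of 34 h and of 24.9, 36.8 and 24.9 in those of 14 h. The 3 libraries of 34 h lay below the 3 of 14 h, as the medians of all genes did, with means of 17.8 ± 5.64 and 28.9 ± 6.86 (SD, n = 3 each). The summits stood on 41 to 80 fragments at 34 h and 49 to 81 at 14 h. They lay on average 176 bp before the second listed start and 800 bp inside the gene as annotated from its first start, beside the capital word of the window shown above, which begins 184 bases before that start. The first start had a small peak of its own in replicate 3 of 14 h alone, with a fold of 5.59.

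Hells, which encodes an SNF2-family remodeller needed for DNA methylation, had a peak in all 6 libraries as well (chr19:38930743-38931087). Its fold was 6.85, 6.81 and 7.91 at 34 h, against 7.85, 9.55 and 10.4 at 14 h. The 2 times overlapped narrowly, with means of 7.19 ± 0.625 and 9.25 ± 1.29 (SD, n = 3 each). All 6 summits fell within 17 bp of each other and on average 53 bp before the listed start, between the capital words that begin 61 and 43 bases before it. Dnmt1, the maintenance methyltransferase gene, had a peak in replicate 2 alone at each time (fold 6.42 at 34 h and 7.64 at 14 h, chr9:20952675-20952980). That peak lay 7029 bp from the nearer end of the gene, at a pair of inner listed starts.

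Dnmt3b, which encodes a de novo methyltransferase, likewise had a peak only in replicate 2 of each time, at its start (fold 5.73 at 34 h and 10.2 at 14 h). Dnmt3a had none. Of the TET genes, Tet2 had a peak in both replicate 2 libraries (fold 5.50 at 34 h and 4.96 at 14 h), Tet1 in replicate 1 of 34 h alone (fold 4.56, 22029 bp inside the gene), and Tet3 had none.

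In PRC2, Suz12, the scaffold gene, had a peak at its start in all 6 libraries (chr11:79992744-79993193). The fold was 8.67, 12.4 and 6.61 at 34 h, against 7.33, 11.4 and 8.39 at 14 h. The 2 times covered nearly the same range, with means of 9.23 ± 2.94 and 9.02 ± 2.09 (SD, n = 3 each). Summits lay on average 94 bp before the start, and the capital word of the Suz12 window begins 218 bases before it.

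Ezh2, the methyltransferase gene, had peaks in 2 libraries of 34 h (fold 6.02 in replicate 1 and 7.81 in replicate 2) and in all 3 of 14 h (fold 6.83, 8.12 and 12.1) within chr6:47594814-47595552. The summits differed in place. At 34 h the highest ones lay 50 bp after the listed start in replicate 1 and 3 bp before it in replicate 2, and at 14 h they lay 341, 356 and 309 bp before it in replicates 1, 2 and 3. Replicate 1 of 34 h also had a smaller peak 312 bp before the start, with a fold of 5.14, so both places held a peak in that library. The gene as annotated begins at 47595270, further out than the listed start at 47595030. The 14 h summits, at 47595371, 47595386 and 47595339, are nearer to that outer boundary. When peaks had to overlap by 50% of each other's length, Ezh2 was no longer called at 34 h. Eed, the subunit that binds the methyl mark, had a peak in replicate 2 of each time only (fold 5.92 at 34 h and 7.18 at 14 h), 351 bp after its start.

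Of the H3K9 methyltransferase genes, Suv39h1 had a strong region in all 6 libraries (chrX:8074396-8074740). Its fold was 15.4, 17.0 and 10.5 at 34 h, against 15.5, 28.9 and 15.9 at 14 h. The 3 libraries of 34 h ranged from below those of 14 h to within their range, with means of 14.3 ± 3.42 and 20.1 ± 7.60 (SD, n = 3 each). Its summits lay on average 190 bp after the outer listed start, at the 5′ edge of the window shown for the inner start, which holds none of the 3 E2F-type words.

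Suv39h2 was weaker, with a fold of 3.83 and 4.77 in replicates 2 and 3 of 34 h and of 9.70, 6.14 and 8.47 at 14 h (chr2:3474801-3475139). The 2 libraries of 34 h lay below the 3 of 14 h, again as the medians of all genes (6.05 to 6.34 at 34 h and 8.81 to 9.04 at 14 h), with means of 4.30 ± 0.664 (SD, n = 2) and 8.11 ± 1.81 (SD, n = 3). The summits stood on 22 and 25 fragments at 34 h and on 24, 17 and 22 at 14 h. The local background was 5.00 and 4.45 fragments at 34 h, against 1.58, 1.93 and 1.71 at 14 h. The region lay on the start of Suv39h2 and also within 1 kb of Dclre1c, an end-joining nuclease gene, so it cannot be given to one gene alone. With a −log10 q of at least 5, Suv39h2 was no longer called at 34 h. Replicate 2 of 14 h also had a smaller peak 554 bp after the start of Suv39h2, with a fold of 4.41. Ehmt1, which encodes GLP, had a peak at its start in all 3 libraries of 14 h (fold 6.36, 9.28 and 7.73) and in replicate 2 of 34 h (fold 6.71), with the 34 h value inside the range of 14 h. Ehmt2 and Setdb1 had no peak.

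The highest fold of any member belonged to Brd8, which encodes a bromodomain subunit of the NuA4/TIP60 acetyltransferase complex (chr18:34624407-34625217). Its fold was 31.4, 30.9 and 24.5 at 34 h, against 23.0, 45.3 and 23.7 at 14 h. The 2 times overlapped, with means of 28.9 ± 3.88 and 30.7 ± 12.7 (SD, n = 3 each), and the summits stood on 64 to 126 fragments. By −log10 p the peak ranked 1, 13 and 3 in the lists of 34 h and 24, 9 and 20 in those of 14 h. The region is shared with Kif20a, a mitotic kinesin gene that adjoins Brd8, and a binding site between them cannot be assigned to either.

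**Figure D3:**
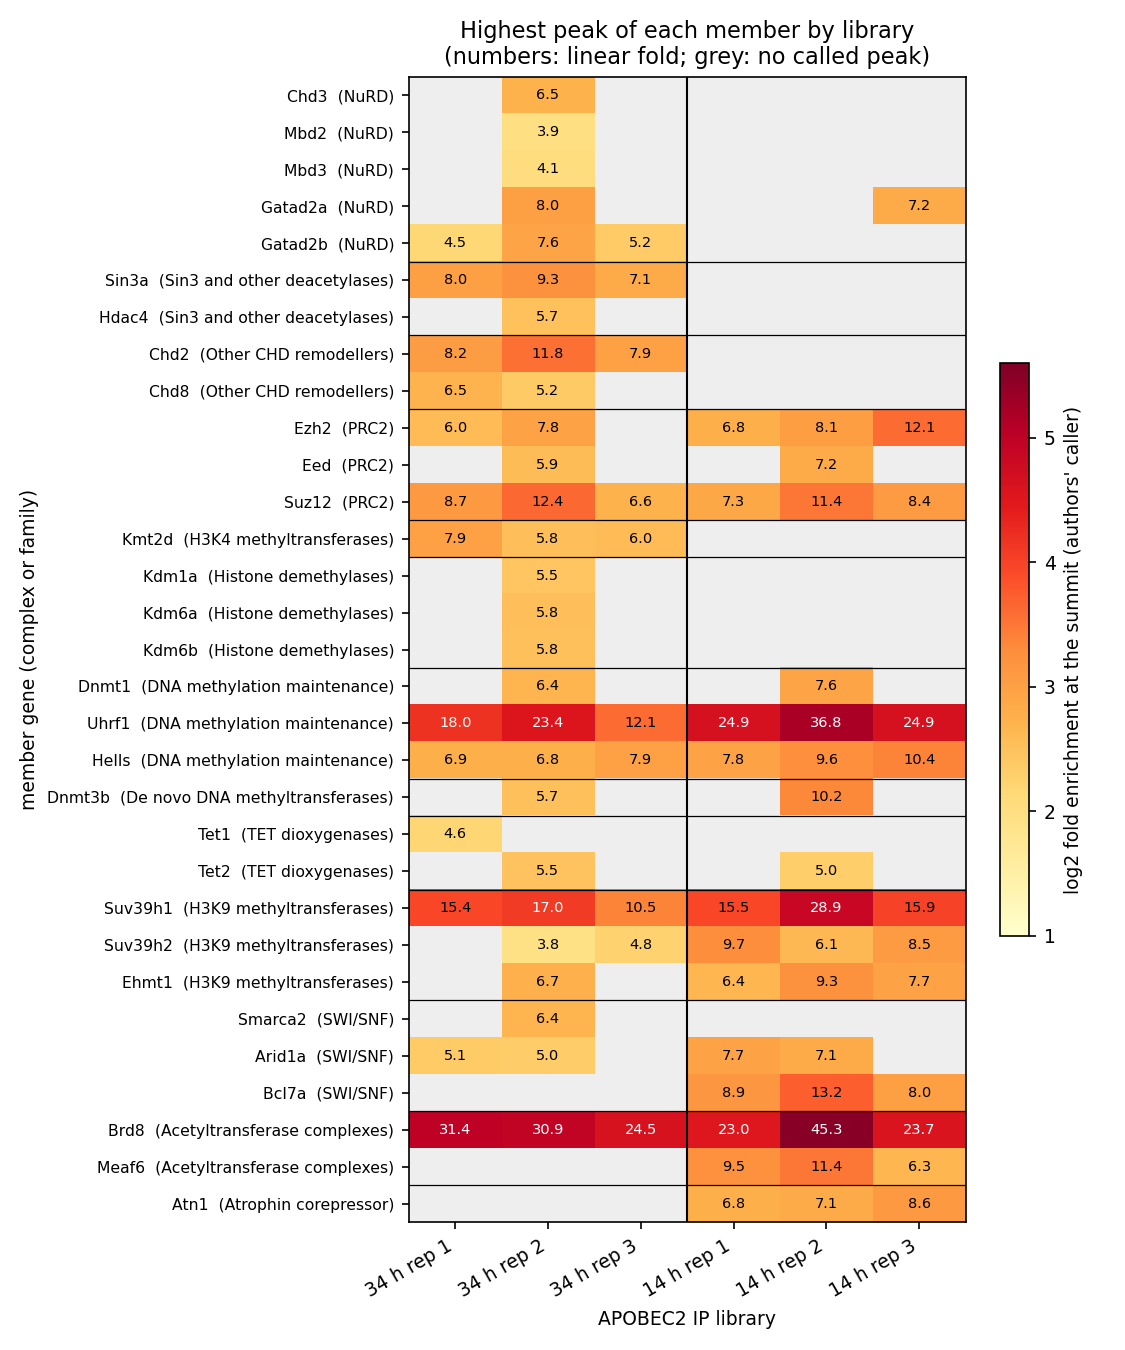
Fold of the highest peak of each of the 31 members with any peak (rows, by complex) in each IP library (columns, 34 h left and 14 h right of the black line); colour is the log2 fold, the printed number the linear fold, and grey marks no called peak. Brd8, Uhrf1 and Suv39h1 are high in all 6 libraries, and many rows hold a value in replicate 2 alone.

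The members called at 34 h and not at 14 h had folds of 4.47 to 11.8 in their called regions, where the median over all genes with a peak was 6.05 to 6.34. Sin3a, the scaffold gene of the Sin3 deacetylase complex, had 2 called regions, both inside the gene. In the one before its second listed start (chr9:57075949-57076346) the fold was 7.99, 7.68 and 7.12 in replicates 1, 2 and 3 of 34 h, and no library of 14 h had a peak. The other, 1638 bp inside the gene (chr9:57073077-57073851), had a fold of 4.54 in replicate 1 and 9.26 in replicate 2. Chd2, a remodeller gene, had a fold of 8.20, 11.8 and 7.91 at 34 h and no peak at 14 h, at 3822 bp from the nearer end of the gene (chr7:73537722-73538141). Gatad2b, a NuRD subunit gene, had a fold of 4.47, 7.59 and 5.15 at 34 h and no peak at 14 h, with summits on average 187 bp before its start. It was not called at 34 h with a −log10 q of at least 5 or with lists of equal length, and no NuRD gene was then called.

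Kmt2d, an H3K4 methyltransferase gene, had a fold of 7.88, 5.77 and 6.05 at 34 h and no peak at 14 h (chr15:98831363-98831666). This region lay beyond the 3′ end of Kmt2d, 39664 bp from its listed start, and 33 bp from a boundary of Prkag1. Chd8, a remodeller gene, had a fold of 6.48 and 5.20 in replicates 1 and 2 of 34 h and no peak at 14 h (chr14:52197317-52197668). That region too lay beyond the 3′ end, 60272 bp from the listed start of Chd8, and 249 bp from a boundary of Supt16. Both are thus counted by the rule of 1 kb and lie nearer to the neighbouring gene. Chd8 also had a peak at its own start in replicate 2 of 34 h alone, with a fold of 4.83 and the summit 143 bp before the listed start. Where the nearest boundary had to be the gene's own, 10 of 50 members were called at 34 h (20%), against 7.18% of all genes.

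The members called at 14 h and not at 34 h had folds of 6.34 to 13.2 at 14 h in their called regions, where the median over all genes with a peak was 8.81 to 9.04. Bcl7a, which encodes an accessory subunit of SWI/SNF, had no peak at 34 h and a fold of 8.89, 13.2 and 8.03 at 14 h, 889 bp inside the gene (chr5:123345177-123345479). Meaf6, which encodes a subunit shared by several acetyltransferase complexes, had none at 34 h and a fold of 9.47, 11.4 and 6.34 at 14 h (chr4:125084959-125085296). Its summits lay on average 73 bp before the listed start, and the capital word of its window begins 104 bases before it. Atn1, an atrophin corepressor gene, had none at 34 h and a fold of 6.80, 7.12 and 8.57 at 14 h, 3134 bp inside the gene (chr6:124745564-124745796).

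Arid1a, which encodes a large subunit of SWI/SNF, had a fold of 5.02 in replicate 2 of 34 h and of 7.73 and 7.13 in replicates 1 and 2 of 14 h in a region 4999 bp inside the gene (chr4:133751512-133751952). It had 4 further regions around its starts, with peaks of replicates 1 or 2 only and folds of 3.54 to 6.73. When peaks did not have to overlap between libraries, Arid1a was called at both times.

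Presence of a peak was compared between 34 h and 14 h for each member by an exact two-sided permutation test over the 3 against 3 libraries, whose smallest p is 0.1. Sin3a, Chd2, Gatad2b and Kmt2d (3 libraries of 34 h and 0 of 14 h) and Bcl7a, Meaf6 and Atn1 (0 and 3) reached that value, and no member could pass 0.05. Of all protein-coding genes, 1.04% had a peak in 3 libraries of 34 h and 0 of 14 h, and 8 genes (0.0366%) had the reverse. Bcl7a, Meaf6 and Atn1 are 3 of those 8 and were put on the list with that known. Chd2 too had been seen to hold regions before, so the values of these genes are descriptions only. When all 6 lists were shortened to the 768 peaks ranked highest by −log10 p, as many as the shortest list holds, 7 members were called at 34 h and 11 at 14 h, against 3.14% and 3.75% of all genes. Atn1, Bcl7a, Ehmt1, Ezh2, Hells, Meaf6 and Suv39h2 were then called at 14 h only (7 members, 14%, against 1.37% of all genes). Of these, Atn1, Bcl7a, Ehmt1, Ezh2 and Meaf6 had been seen to hold regions before. Chd2, Kmt2d and Sin3a were then called at 34 h only (6%, against 0.759% of all genes).

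At least 1 peak was found for 31 of the 50 members (62%), against 20.2% of all genes. Of these, 14 were not called, and the other 19 members had no peak. Chd3, Mbd2, Mbd3, Hdac4, Smarca2, Kdm1a, Kdm6a and Kdm6b had peaks in replicate 2 of 34 h alone, with folds from 3.93 (Mbd2) to 6.54 (Chd3). Of all genes, 7.85% had peaks in that library alone. Together with Dnmt1, Dnmt3b, Eed and Tet2, 12 members (24%) had peaks of replicate 2 libraries alone, against 9.23% of all genes. Gatad2a, a NuRD subunit gene, had a peak at its start in replicate 2 of 34 h (fold 7.98) and replicate 3 of 14 h (fold 7.15). No library had a peak for the NuRD genes Hdac1, Hdac2, Chd4, Mta1, Mta2, Mta3 and Rbbp7, for the deacetylase genes Hdac3, Hdac5 and Hdac7, for the ATPase gene Smarca4, for the acetyltransferase genes Ep300 and Crebbp, or for Chd1, Kmt2a, Dnmt3a, Tet3, Setdb1 and Ehmt2.

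Where the RefSeq starts are listed, most called regions of members lay within 1 kb of one. Brd8, Chd2, Bcl7a and Atn1 have no listed start and are not counted here. At 34 h, 8 of 11 such regions had their mean summit within 1 kb of a listed start of the member (72.7%), against 81.9% over all called genes. At 14 h it was 8 of 9 (88.9%), against 91.2%. Chd8, Kmt2d and the Sin3a region 1589 bp after a listed start were the exceptions at 34 h and Arid1a the one at 14 h. The median distance to a listed start was 187 bp for members at 34 h, against 115 bp over all called genes. At 14 h it was 120 bp, against 85.8 bp. Exons and introns were not resolved here.

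**Figure D4:**
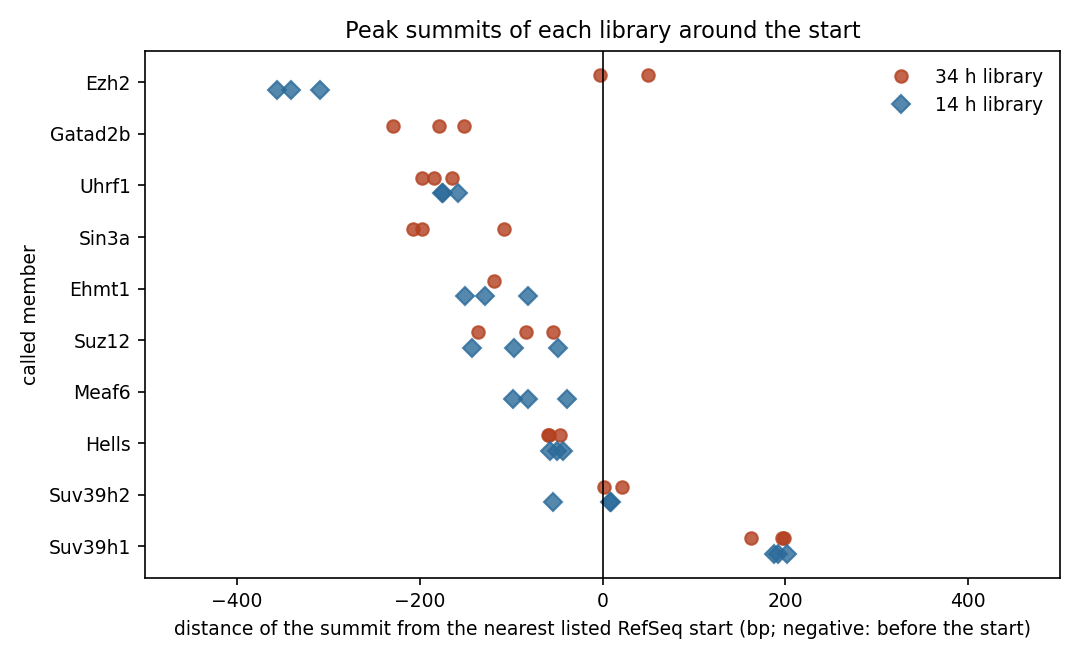
Distance in bp (x axis, negative before the start) of each library's summit from the nearest listed RefSeq start for the 10 called members (y axis) with a region within 1 kb of one; circles are 34 h libraries and diamonds 14 h libraries. Hells and Uhrf1 summits cluster tightly at both times, and for Ezh2 the highest 34 h summits lie at the start and the 14 h summits 309 to 356 bp before it. A smaller Ezh2 peak of 34 h replicate 1, 312 bp before the start, is not drawn.

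The promoter windows of the members were searched for 9 short words on both strands. At least 1 of the 3 E2F-type words, which can overlap in part with each other and with the GC box, was held by 6 of 11 member windows touched by a called region (54.5%) and by 5 of 43 touched by none (11.6%). Over all genes the shares were 30.9% of 1642 touched windows, 6.87% of 31209 untouched ones and 8.07% of all 32851. The 6 windows were those of Uhrf1, Hells, Suz12, Ezh2, Suv39h2 and Meaf6. Untouched windows are those without a called region, and they can still hold peaks. Among the 5, those of Dnmt1, Gatad2a, Mbd3 and the first start of Uhrf1 held a mean summit, with peaks of at most 1 library of a time. Ezh2's word begins 4 bases after its start, close to the highest 34 h summits and more than 300 bp from those of 14 h. The smaller peak of 34 h replicate 1, 312 bp before the start, lay away from the word as well. The 11 windows belong to 10 genes, as Suv39h1 has 2, and these shares were not tested.

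Base composition moved with the calls over all genes, with a median GC content of 61.3% in touched windows and 52.3% in untouched ones, while among members it was 68% in both. The GC box GGGCGG was held by 81.8% of touched and 83.7% of untouched member windows (74.1% and 33.6% over all genes, 35.7% of all windows). The CCAAT box, spelled CCAAT, was in 54.5% and 39.5% (57.6% and 36.3%, all windows 37.4%), and the CHR element TTTGAA in 18.2% and 6.98% (18.0% and 17.9%, all windows 17.9%). The muscle E-box CAGCTG was in 27.3% and 11.6% (12.1% and 16.5%, all windows 16.3%), the Myc E-box CACGTG in 0 and 11.6% (8.04% and 7.10%, all windows 7.15%), and the cAMP response core TGACGT in 9.09% and 9.30% (14.7% and 7.13%, all windows 7.51%). The part of composition in these shares was not tested.

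A further 148 chromatin genes were listed, from the same complexes and from groups without a member. The added groups are PRC1, ISWI and INO80, other lysine methyltransferases, and DNA methylation readers and repair. Of these, 32 were called at 34 h (21.6%, all genes 8.77%), 11 at 14 h (7.43%, all genes 4.27%) and 9 at both. These folds too are to be read beside the lower medians of all genes at 34 h. The strongest called at both times was Nsd2, an H3K36 methyltransferase gene, with a mean fold of 20.9 ± 4.97 at 34 h, against 28.5 ± 6.97 at 14 h (SD, n = 3 each). Brd9, a SWI/SNF bromodomain gene, shares a region with Trip13, a checkpoint ATPase gene, with a mean fold of 18.7 ± 3.98 at 34 h, against 24.2 ± 1.92 at 14 h (SD, n = 3 each). Ing2, which encodes a reader subunit of the Sin3 complex, had a mean fold of 10.4 ± 2.55 at 34 h, against 20.3 ± 3.42 at 14 h (SD, n = 3 each). The others, with mean folds of 4.22 to 7.76 over their libraries, were Jade1, Mbd4 (shared with Ift122), Kdm7a, Baz1b, Mtf2 and Jarid2.

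Of 6 further PRC2 genes listed, the accessory genes Mtf2, Jarid2 and Phf19 were called at 34 h (50%, all genes 8.77%). Mtf2 and Jarid2 were called at 14 h (33.3%, all genes 4.27%). The regions of Jarid2 and Phf19 lay 52034 and 9043 bp from the nearer end of the gene. Within 1 kb of a start or end, 1 of the 6 was called at each time (16.7%), against 7.26% and 3.87% of all genes. Of 17 PRC1 genes, 2 were called at 34 h (11.8%, all genes 8.77%) and 0 at 14 h (all genes 4.27%), and of the 9 further H3K4 methyltransferase subunits 0 at either time. Counts this small are near those shares of all genes. The 4 further NuRD genes also had 0 at either time.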

How the data were processed

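Sequencing of 6 APOBEC2 IP libraries and 2 input libraries was deposited as 6 peak lists with matching summit files, 1 pair per IP library. Per the submitters' processing notes, Subread, MACS2 and mm10 were used; their versions, the threshold and the control of each call are not given in these sources. In the deposited lists the authors give for each peak a fold enrichment (a ratio to local background), a −log10 p-value and a −log10 q-value. The inputs have no list and enter no value of their own. The labels gave the groups.

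Peaks of the 6 lists that overlapped by at least 1 bp were merged into 5567 regions and set against the 21883 protein-coding genes of the RefSeq GRCm38.p6 gene table, within 1 kb. Fragment counts at summits were solved from fold and p-value to within 0.001 on the −log10 scale. Described in full were all members with a called region, and the other chromatin genes called at both times. The members and lists were chosen with earlier results of these data known. Alternatives were equal list lengths, a −log10 q of at least 5, other windows, overlaps and library numbers, the nearest gene alone, and leaving out each library. Python 3.11.15, pandas 2.3.3, numpy 2.4.6, scipy 1.17.1 and matplotlib 3.10.9 were used, and the counting was tested on simulated peaks.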

Additional observations from a re-analysis of the deposited data

How the results depend on the processing

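The number of members called at 14 h (12) stayed within 1.5 times under all 16 alternatives, where 2.95% to 6.96% of all genes were called. That at 34 h (12) was 7 with lists of equal length and 28 when 1 library sufficed (3.14% and 19.1% of all genes). Both times together (7) gave 4 and 14 under the same settings (2.39% and 5.87% of all genes). Members called at 34 h and not at 14 h (5) were 3 with lists of equal length (0.759% of all genes). They were also 3 within 1 kb of a start or end (4.03%) and 3 where the nearest boundary had to be the member's own (4.44%). When 1 library sufficed they were 14 (13.2%). Members called at 14 h and not at 34 h (5) were 3 within 1 kb of a start or end and 3 when 1 library sufficed. Over all genes these shares were 0.644% and 1.1%. With lists of equal length they were 7 members (1.37% of all genes). Leaving out each library gave 9 to 12 members at 34 h, 11 to 12 at 14 h, 5 to 7 at both, 4 to 5 at 34 h alone and 4 to 7 at 14 h alone. Over all genes the shares were then 3.93% to 8.77% at 34 h, 2.98% to 4.27% at 14 h and 2.6% to 3.41% at both. Those of a single time were 1.33% to 6.02% at 34 h alone and 0.238% to 1.67% at 14 h alone. The cause was not tested, beyond the shorter lists and wider rules that these settings make.

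The replicate numbers are shared between the times, and the labels do not say what a number stands for. Same-numbered libraries held 7, 13 and 6 members in common and other pairs 6 to 9. The replicate 2 libraries, with the longest lists, held the most in common, and whether the numbers pair the libraries was not tested. With the replicate number as a block, a sign-flip test cannot go below p = 0.25, the exact value for Sin3a, Chd2, Gatad2b, Kmt2d, Bcl7a, Meaf6 and Atn1. Summits on few fragments limit what an absent peak can show.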

Other observations

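Jarid2, a PRC2 accessory gene, held 2 called regions far inside the gene. The one called at both times, 52034 bp from the nearer end, lay on a high local background and had a mean fold of 5.00 ± 0.378 at 34 h (SD, n = 3) and 3.06 ± 0.296 at 14 h (SD, n = 2). Its summits stood on a mean of 103 fragments at 34 h and 67 at 14 h, where the median summit of a list stood on 19 to 24. The other, 51646 bp from that end, had a peak in each library of 34 h and no peak at 14 h, with a mean fold of 4.18 ± 0.337 (SD, n = 3). Hdac4, a class IIa deacetylase gene, had 4 separate regions, all from replicate 2 of 34 h, with folds of 4.31 to 5.67. The HP1 genes Cbx3 and Cbx5 were called at 34 h, with a mean fold of 8.98 ± 2.51 and 7.53 ± 2.50 (SD, n = 3 each), and had a peak in 1 library of 14 h each. Both regions are shared with a neighbouring hnRNP gene, Hnrnpa2b1 and Hnrnpa1.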
